A study of Mus musculus with 11 samples.

Results

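The wells described here are uninjured hepatic stellate cells (HSCs) of adult male C57BL/6 mice that carry the Pdgfrb-BAC-eGFP reporter, sorted 1 GFP-positive cell to a well and profiled along the whole transcript by Smart-seq2. They were chosen on a single 384-well plate, labelled 3x Healthy, as the wells with at least 50000 reads in genes, at least 100 reads of Reln and at least 100 reads of Lrat. The rule kept 319 of the 384 wells, out of 2304 wells on 6 plates in the series, which also holds 31018 cells of 5 droplet libraries. The layout of the plate has 3 uninjured entries, and the labels give 3 mice. The labels also give 1 portal fibroblast and 2 stellate preparations, and the paper describes 2 digestion protocols. Whether each entry is a single mouse, and which preparation and digestion went with which entry, is not given in the sources used here. The entry Uninjured 2 gave 158 wells, Uninjured 3 gave 160 and Uninjured 1 gave 1, so levels are given for Uninjured 2 and Uninjured 3. The cells came from uninjured liver, the reporter marks mesenchymal cells through the Pdgfrb promoter, and no well carries a label of cell type. The same cell type was also profiled by 3′ 10X Chromium sequencing in 1 library from 3 uninjured mice, in which 6773 of 6850 cells that passed a filter on genes and mitochondrial content held a UMI (a molecule counted by its own barcode) of both Reln and Lrat.

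HSCs lie in the perisinusoidal space between the sinusoidal endothelium and the hepatocytes, where they store vitamin A as retinyl esters made by the enzyme encoded by Lrat. In the uninjured liver they are quiescent, and after injury they can become contractile cells that lay down scar matrix. Reln encodes reelin, a secreted glycoprotein that in the liver marks HSCs. Transcription factors hold the identity of such a cell, receptors set which signals it can read, and secreted proteins are what its neighbours receive, so the genes are described in that order.

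Libraries were deep and alike between the entries. The 158 wells of Uninjured 2 held 68558882 gene reads, with a lowest well of 113601, a median of 456234 and a highest of 594737. The 160 wells of Uninjured 3 held 73669587 gene reads, between 112788 and 639481 a well with a median of 476161. A median of 3353 genes was read per well in Uninjured 2 and 3449 in Uninjured 3. Reads of the eGFP reporter were found in 156 and 158 of these wells, at a median of 265 and 242 per 1000000 gene reads (RPM). The 2 control wells held 341 and 1648 gene reads, too few to show whether the reporter was absent from them. All levels below are RPM from the reads summed over the wells of an entry, unless they are given per kilobase of exon, the scale on which genes can be compared with each other. Smart-seq2 reads carry no UMIs, so counts of reads are not counts of molecules, and intervals given for the 10X values cover counting error only.

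The wells were chosen by their reads of Reln and Lrat, whose values follow as a description. Reln was at 7675 RPM in Uninjured 2 (lowest, median and highest well 1015, 7695 and 15276) and at 8619 RPM in Uninjured 3 (2317, 8676 and 16352). Lrat was at 3515 RPM in Uninjured 2 (280.1, 3517 and 8989) and at 4314 RPM in Uninjured 3 (502, 4355 and 10199). The other 55 wells of the plate with at least 50000 reads all came from Uninjured 1 and held 3.76 RPM of Reln and 34.8 RPM of Lrat. Each comparison with these other wells is thus also one between layout entries, and the part of the preparation in it was not tested. Every well of Uninjured 2 and Uninjured 3 that reached the read minimum passed the rule. Just inside it were a well of Uninjured 2 with 4339 reads of Reln and 128 of Lrat and the well of Uninjured 1 with 269 and 182, and just outside were wells of Uninjured 1 with 2 reads of Reln and 368 of Lrat, and with 0 and 312. On the other 5 plates 1 uninjured well met the rule and 634 with enough reads did not.

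**Figure D1:**
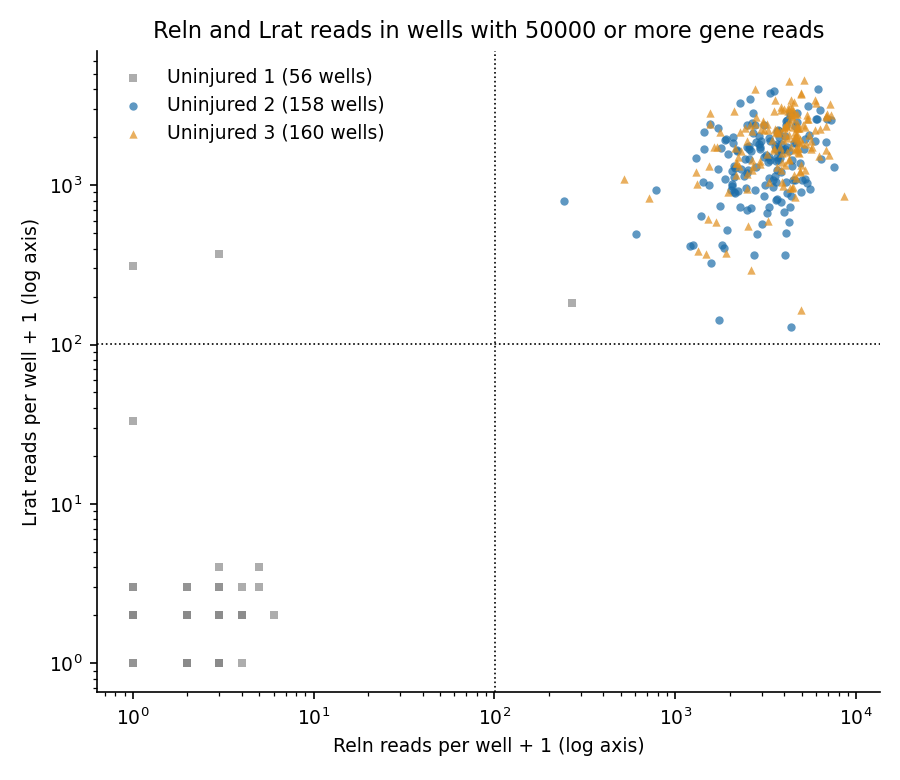
Reads of Lrat (vertical) against reads of Reln (horizontal) in each well of the plate with at least 50000 gene reads, both plus 1 on log axes, coloured by layout entry, with the minimum of 100 reads of each gene drawn as lines. The 158 wells of Uninjured 2 and 160 of Uninjured 3 lie in the upper right, while 55 of the 56 wells of Uninjured 1 lie outside.

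The selected wells carried the markers of HSCs and little of other cell types. The 8 HSC markers (Vipr1, Colec11, Pth1r, Ecm1, Hgf, Rgs5, Ngfr and Des) summed to 38387 RPM in Uninjured 2 and 34385 in Uninjured 3, led by Ecm1 at 22811 and 19544 RPM, against 3895 in the other 55 wells. Des, the intermediate filament desmin, went the other way, at 357 and 264 RPM against 1929 in the other wells. The 6 markers of portal fibroblasts (FBs) summed to 13.0 and 13.3 RPM, led by Entpd2, against 1292 in the other wells, and Clec3b was at 0 in both entries. The 6 markers of vascular smooth muscle cells (VSMCs) summed to 233 and 134 RPM, led by Tagln and Tpm2 respectively, against 27525 in the other wells, and 42 and 34 selected wells had reads of at least 3 of them. Tagln, Tpm2 and Myh11 were at a low level in both entries, Myh11 at 57.6 and 22.2 RPM. Acta2 was at 28.7 RPM in Uninjured 2 and 0.774 in Uninjured 3. Pln was at 5.24 and 2.12 RPM and Cnn1 at 0.861 and 0.095, and none of the 6 was at 0. Endothelial markers summed to 84 and 49.8 RPM, nearly all of it Clec4g, with Lyve1 at 0 in both entries, and hepatocyte markers to 29.9 and 43.3 RPM, led by Alb. Leucocyte markers summed to 9.495 and 8.35 RPM, led by Cd68, with Ptprc, Clec4f and Cd3e at 0, and cholangiocyte and mesothelial markers each stayed under 1 RPM. Schwann cell markers summed to 8.28 and 5.58 RPM.

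The selected well of Uninjured 1 stood apart from the other 318. It held Acta2 at 17050, Myh11 at 6597, Tagln at 2855 and Cnn1 at 613 RPM, each higher than in all of the 318, and Reln at 726 RPM, lower than in all of them. The products of Acta2, Myh11 and Cnn1 are contractile proteins of smooth muscle. Ecm1, Dcn and Colec11 were also lower in it than in all 318 wells. The well enters no value of an entry given here, so that every level below is the same with or without it.

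Across all 23997 gene names of the plate, 7928 (33.0%) were at 10 RPM or more in both entries. This level was reached by 164 of 402 transcription factors (40.8%), 141 of 518 receptors (27.2%) and 166 of 564 secreted genes (29.4%). No read in either entry was found for 81 transcription factors, 116 receptors and 136 secreted genes. Against the other uninjured cells of the series (the 55 wells above and the uninjured wells of the other 5 plates), 210 of the 7928 genes (2.65%) were at least 4-fold higher in both entries than in each of those portions, among them 5 transcription factors, 25 receptors and 28 secreted genes. The wells were chosen by 2 genes of this contrast, so these counts are a description only.

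The 3 genes below, one of each class, were high in both entries and stood among those genes, and their promoters are printed so that the sequence before the start site can be read beside the level. Nr1h5 encodes a nuclear receptor related to the bile acid receptor, Vipr1 a receptor for vasoactive intestinal peptide, and Gdf2 the ligand BMP9. Each sequence runs 5′ to 3′ from 250 bases before to 50 bases after the start of the transcript (RefSeq, GRCm38.p6), at chr3:102964084-102964383 on the minus strand for Nr1h5, chr9:121642466-121642765 on the plus strand for Vipr1 and chr14:33940789-33941088 on the plus strand for Gdf2. Capitals mark matches to 5 motifs searched on both strands.
Nr1h5: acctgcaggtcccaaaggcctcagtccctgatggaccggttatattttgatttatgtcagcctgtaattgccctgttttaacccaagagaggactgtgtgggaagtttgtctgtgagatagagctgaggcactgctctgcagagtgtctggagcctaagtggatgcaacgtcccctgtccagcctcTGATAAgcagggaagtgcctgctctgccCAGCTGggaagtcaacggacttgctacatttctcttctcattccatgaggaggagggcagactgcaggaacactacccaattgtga
Vipr1: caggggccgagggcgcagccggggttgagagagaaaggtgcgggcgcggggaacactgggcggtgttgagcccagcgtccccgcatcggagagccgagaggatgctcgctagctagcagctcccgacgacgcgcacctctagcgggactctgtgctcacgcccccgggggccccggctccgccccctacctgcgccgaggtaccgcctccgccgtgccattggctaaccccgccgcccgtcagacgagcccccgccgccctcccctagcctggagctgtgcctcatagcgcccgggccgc
Gdf2: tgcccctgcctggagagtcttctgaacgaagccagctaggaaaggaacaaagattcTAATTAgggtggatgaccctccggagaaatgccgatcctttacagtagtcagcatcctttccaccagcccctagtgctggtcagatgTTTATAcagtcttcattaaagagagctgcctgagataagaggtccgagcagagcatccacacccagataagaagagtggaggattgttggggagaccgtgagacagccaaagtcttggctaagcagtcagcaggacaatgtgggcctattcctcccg
The letters TATAAA, the TATA box of many start sites, were searched for and occur on either strand in 13.6% of the 32544 distinct promoters of that length. The same share was 16.4% for CAGCTG, an E-box that basic helix-loop-helix factors can bind and that reads the same on both strands. It was 5.29% for TAATTA, a homeodomain core with the same property, and 8.91% for a motif of GATA factors, TGATAA, among the same promoters. For the AP-1 motif TGACTCA it was 5.19%. The Nr1h5 window held TGATAA and the E-box. The Gdf2 window held the homeodomain core and TTTATA, the opposite strand of TATAAA, 107 bases before the start site. Other forms of the GATA motif, such as AGATAA, were not searched for. AGATAA also occurs in the Gdf2 window, where it is left in lower case. In the Vipr1 window no match to any of these letters was found. No matches overlapped each other. A match is a run of letters and not a site shown to be bound.

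Nr1h5 was at 599.5 RPM in Uninjured 2 (lowest, median and highest well 0, 523 and 5113) and 538 RPM in Uninjured 3 (0, 465 and 2010), with a read in 97.5% and 94.4% of wells, against 0.279 RPM in the other 55 wells. Vipr1 was at 3016 RPM (4.69, 2941 and 7521) and 3181 RPM (277, 3032 and 6967), against 1.76. Gdf2 was at 2664 RPM (359, 2441 and 6755) and 2760 RPM (94.6, 2667 and 6877), against 1.02. The wells of the 2 entries overlapped for each of the 3 genes, and the highest Nr1h5 well of Uninjured 2 lay above all wells of Uninjured 3. A read alone is a weak sign of expression on this plate, since Vipr1 had a read in 43.6% of the other wells at that summed level of 1.76 RPM, so levels and not shares of wells are set against other cells below.

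Among transcription factors, the highest levels per kilobase of exon belonged to immediate early genes, which many cells switch on within minutes of a stimulus. Fos was at 3587 and 2830 RPM per kb in Uninjured 2 and Uninjured 3, Junb at 1024 and 784, Jun at 908 and 619.9 and Egr1 at 771 and 520. Fos ranged from 2.16 to 25578 RPM between the wells of Uninjured 2 and from 1.56 to 21796 RPM between those of Uninjured 3. Both entries therefore held wells nearly without it and wells with very high levels. Id3, an inhibitor of basic helix-loop-helix factors, was at 907 and 653 RPM per kb. The sum over 18 stress and immediate early genes was 21094 RPM in Uninjured 2, 15750 in Uninjured 3 and 24418 in the other wells, and its part in these levels was not tested. Of 34 genes of the Egr, AP-1 and related group, 21 were at 10 RPM in both entries.

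The sixth of the highest factors per kilobase was Nr1h4, which encodes FXR, the nuclear receptor for bile acids, at 296 and 325 RPM per kb. It stood at 682 RPM in Uninjured 2 (lowest, median and highest well 0, 626 and 1948) and 749 RPM in Uninjured 3 (1.78, 688 and 2542), with 6.83 RPM in the other wells. At least 100 RPM was found in 147 of 158 and 153 of 160 wells. Of the 47 nuclear receptors on the plate, 19 were at 10 RPM in both entries. The partner of many of them, Rxra, was at 149 and 165 RPM against 4.09 in the other wells. The retinoic acid receptors, which read a metabolite of the vitamin A stored by these cells, were all present: Rara at 68.9 and 58.7 RPM, Rarb at 97.0 and 105 and Rarg at 51.9 and 58.7. Their levels in the other wells were 43.7, 49.6 and 51.5 RPM. Rarb shares 59.6% of its exon bases with a gene on the opposite strand, and without strand its reads are uncertain. Nr3c1, the glucocorticoid receptor, was at 261 and 228 RPM and Esr1, an estrogen receptor, at 50.5 and 61.4. Receptors not read at this level included Pparg, at 0.0292 and 0 RPM, and Vdr, with no read in either entry.

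Of 52 genes on a list of stellate and mesenchymal lineage factors, 30 were at 10 RPM in both entries. Tcf21, a basic helix-loop-helix factor of mesenchymal progenitors, was at 474 RPM in Uninjured 2 (lowest, median and highest well 0, 403 and 1968) and 437 RPM in Uninjured 3 (0, 392 and 1200), against 121 in the other wells. Zeb2 was at 551 and 633 RPM, Tbx20 at 332 and 291, Gata4 at 246 and 212, Hlx at 121 and 167, Foxf1 at 134 and 106 and Hand2 at 68.6 and 92.0. Lhx2, a LIM homeobox factor, was at 95.7 RPM (0, 50.4 and 655) and 109 RPM (0, 76.8 and 1398), against 3.53 in the other wells. It was the sole member of the 12 LIM homeobox genes at 10 RPM, and of 39 Hox genes 2 were at that level. Other factors of the list or class were lower than in the other wells, some of them near 0. Prrx1 was at 1.85 and 1.98 RPM against 145 in the other wells, and Ebf1 at 0.292 and 0.0950 RPM against 225. Mef2c, a factor of muscle cells, was at 42.4 and 37.5 RPM against 229, and Nr4a1 at 304 and 425 RPM against 1863.

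Ets1, an ETS factor, was at 540.5 RPM in Uninjured 2 (lowest, median and highest well 0, 449 and 2840) and 722 RPM in Uninjured 3 (0, 646 and 2678), against 103 in the other wells. Irf1 and Irf7, factors of the interferon response, were at 699 and 534 RPM and at 143 and 176 RPM, against 195 and 24.1. The median well of Irf7 was at 2.25 RPM in Uninjured 2 and 72.2 in Uninjured 3, with a read in 51.9% and 66.9% of wells, so fewer than all wells held its level. Along with Nr1h4, Nr1h5 and Lhx2, Ets1 and Irf7 made up the 5 factors at least 4-fold above every other uninjured portion. Forkhead genes were at 10 RPM in 9 of 44 cases, Smad genes in 6 of 8, NF-kB genes in 4 of 5 and Sox genes in 3 of 20.

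**Figure D2:**
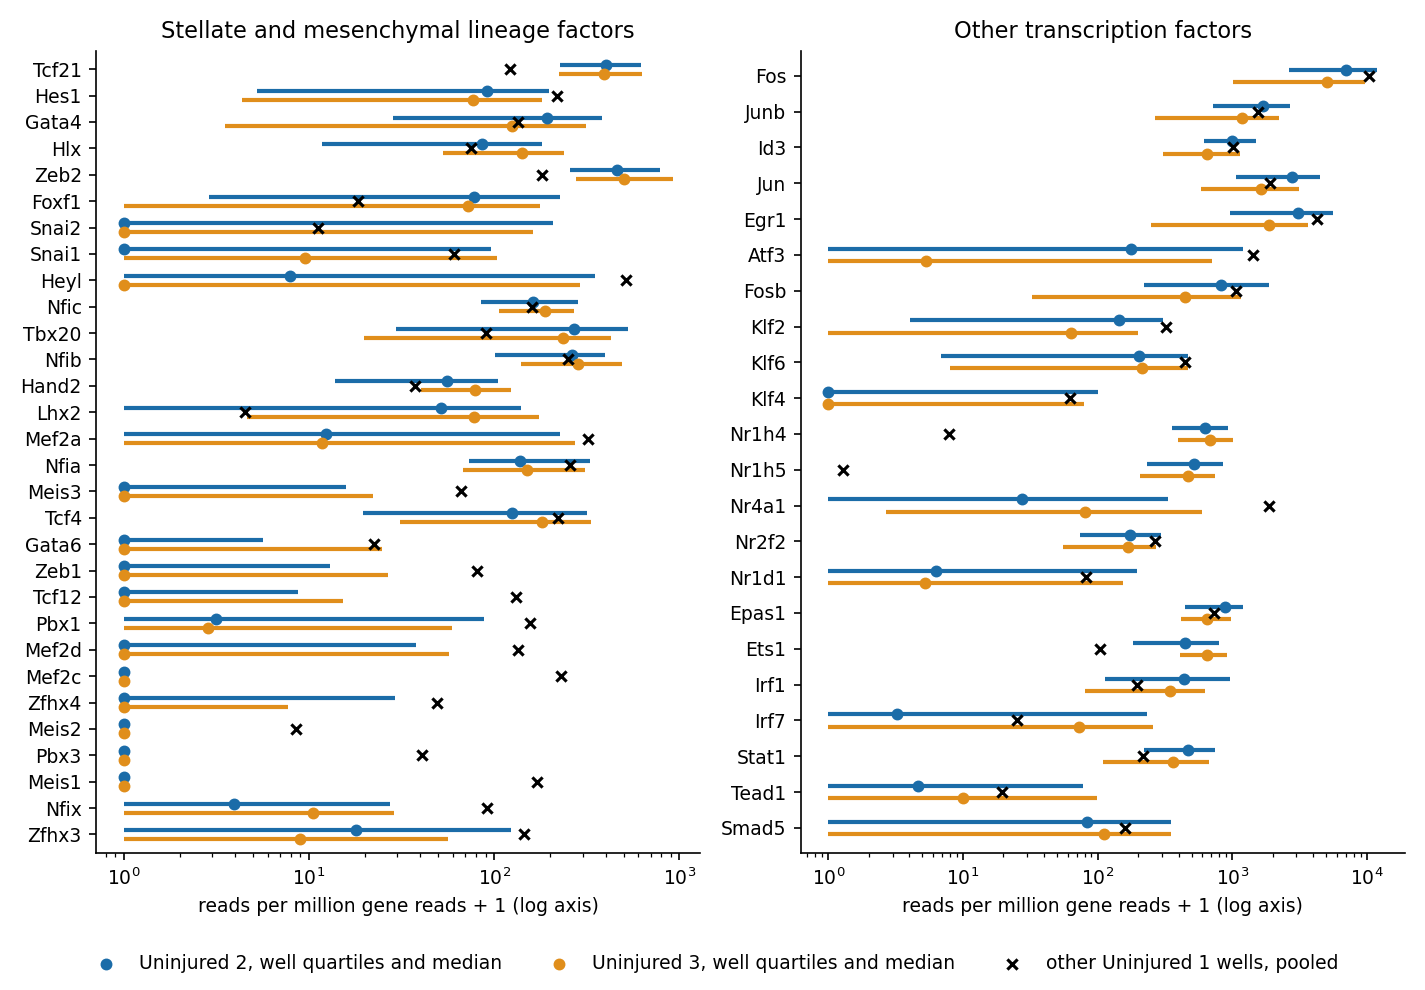
Levels of named transcription factors in RPM on a log axis, plus 1, with the median well (dot) and the quartiles of wells (line) of Uninjured 2 and Uninjured 3 and the summed level of the other 55 wells (cross). The median wells of Nr1h4, Nr1h5 and Lhx2 lie far above the other wells, which are at 0.279 to 6.83 RPM, while Fos lies high in all 3. The lower quartile of Lhx2 is 0 RPM in Uninjured 2 and 3.62 in Uninjured 3, against 3.53 in the other wells.

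Receptors for peptide hormones made up 4 of the 6 highest of their class. Per kilobase of exon, Agtr1a, the type 1 receptor of angiotensin II, led with 737 and 780 RPM per kb, followed by Vipr1 (615 and 649), Eng (555 and 554), Ednrb (484 and 455), Pth1r (528 and 418) and Itgb1 (396 and 414). Agtr1a was at 1621 RPM in Uninjured 2 (lowest, median and highest well 48.6, 1555 and 4281) and 1716 RPM in Uninjured 3 (114, 1658 and 4307), against 36.5 in the other wells. Both endothelin receptors were read, Ednrb at 2064 and 1943 RPM and Ednra at 806 and 916, against 159 and 225. Pth1r, the receptor of parathyroid hormone and its related peptide, was at 1482 and 1172 RPM against 19.0. Calcrl and Ramp1, whose products together form the receptor for calcitonin gene-related peptide, were at 1126 and 887 RPM and at 649 and 571 RPM. Adra2b, an alpha-2 adrenergic receptor, was at 1006 and 965 RPM against 44.0. The genes of some of the ligands had few or no reads in these wells. Agt, the precursor of angiotensin, and Edn1 had no read, and Pthlh was at 0 and 0.0679 RPM. Adm, whose product adrenomedullin binds receptors formed with Calcrl, was at 158 RPM in Uninjured 2 and 315 in Uninjured 3, against 57.2 in the other wells. Of the peptide and chemokine receptors coupled to G proteins, 14 of 87 were at 10 RPM in both entries, of those for amines, purines and lipids 13 of 88, and of adhesion and orphan receptors 14 of 92.

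Of 55 receptor tyrosine kinases, 22 were at 10 RPM in both entries. Fgfr2, a receptor of fibroblast growth factors, was at 1893 RPM in Uninjured 2 (lowest, median and highest well 0, 1880 and 4351) and 2311 RPM in Uninjured 3 (0, 2250 and 5924), against 67.0 in the other wells. Pdgfrb, whose promoter drives the reporter, was at 861 and 651 RPM, close to the 668 of the other wells, and Pdgfra at 363 and 461 RPM against 399. Insr, the insulin receptor, was at 88.9 and 83.1 RPM against 160.2. Ngfr, the p75 neurotrophin receptor, was at 763 RPM (0, 526 and 3582) and 552 RPM (0, 286 and 3408), with at least 100 RPM in 72.8% and 63.1% of wells. Its level was held by fewer wells than that of Vipr1, for which 99.4% and 100% of wells reached 100 RPM.

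Of 17 receptors of the TGF-beta and BMP family, 10 were at 10 RPM. Eng, the co-receptor endoglin, was at 1981 RPM in Uninjured 2 (lowest, median and highest well 492, 1876 and 4767) and 1979 RPM in Uninjured 3 (293, 1772 and 4484). Tgfbr3 was at 406 and 329 RPM, Tgfbr2 at 186 and 194 and Tgfbr1 at 45.0 and 57.4, and the BMP receptors Bmpr2 and Bmpr1a at 155 and 161 RPM and at 91.4 and 83.1 RPM. Acvrl1, which encodes ALK1, the type I receptor through which BMP9 and BMP10 signal in endothelium, had 1 read in Uninjured 2 and 0 in Uninjured 3, against 79.6 RPM in the other wells. The ligands were both present, Gdf2 at the levels given above and Bmp10 at 86.4 and 74.97 RPM against 0.0464. Gdf2, Bmp10 and Eng were thus read in wells in which Acvrl1, 1 type I receptor of the family, was nearly absent. The receptors of reelin were likewise near 0, with Vldlr at 0 and 2 reads (against 100.2 RPM in the other wells) and Lrp8 at 3 and 0 reads. Hhip, which binds and holds back hedgehog ligands, was at 622 and 724 RPM against 63.2, and 12 of 27 receptors of the Wnt, Notch and hedgehog pathways were at 10 RPM.

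Cytokine and death receptors were at 10 RPM in 28 of 81 cases. Lifr was at 1289.7 RPM in Uninjured 2 and 1209.8 in Uninjured 3, its partner chain Il6st at 880 and 1002, Ifnar2 at 579 and 526 and Tnfrsf1a at 321 and 314. Tnfrsf21, or death receptor 6, was at 696 RPM (lowest, median and highest well 0, 589 and 2609) and 627 RPM (0, 578 and 2525), against 0.557 in the other wells. Lepr, the leptin receptor, was nearly absent at 0.0146 and 0.122 RPM against 17.9. Integrin genes were at 10 RPM in 10 of 25 cases, including Itgav at 67.1 and 85.4 RPM and Itgb3 at 241 and 212 RPM, which pair as a vitronectin receptor. Receptors of guidance cues and reelin were at that level in 12 of 30 cases and natriuretic, scavenger and related receptors, a list that also holds Cd63 and Il15ra, in 8 of 18. Plxnc1, a semaphorin receptor, was at 161 and 203 RPM against 2.09 in the other wells.

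The highest secreted genes per kilobase encode matrix proteins, an insulin-like growth factor binding protein, a lipid carrier and a lectin. Dcn, the small proteoglycan decorin, was at 48765 RPM in Uninjured 2 (lowest, median and highest well 17247, 47989 and 79524) and 54444 RPM in Uninjured 3 (18716, 53460 and 102272), against 9642 in the other wells. Per kilobase of exon it was at 25149 and 28078 RPM per kb, followed by Ecm1 (12006 and 10286), Igfbp7 (5057 and 6139), Apoe (4009 and 5486), Bgn (3570.3 and 4169.9) and Fcna (4350 and 3432). Tgfbi was at 6515 and 7339 RPM and Col14a1 at 4330 and 4578 RPM, against 765 and 1373. The fibrillar collagen Col3a1 was at 1653 and 2697 RPM, below the 5254 of the other wells, and Col1a1 at 109 and 216 RPM, below their 1532. Of 44 collagen genes 14 were at 10 RPM, of 19 laminin and basement membrane genes 11, of 56 matrix glycoproteins and proteoglycans 27 and of 71 proteases, inhibitors and lysyl oxidases 33. Lama1, a laminin chain, was at 496 and 425 RPM against 0.186, and Adamts13, the protease that cleaves von Willebrand factor, at 560 and 510 RPM (highest wells 1982 and 1880) against 15.0.

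Genes of the lectin pathway of complement, in which collectins and ficolins bind sugars on microbes and their serine proteases start the cascade, were read in part. Fcna, encoding ficolin A, was at 5977 RPM in Uninjured 2 (lowest, median and highest well 2.71, 4794 and 17592) and 4716 RPM in Uninjured 3 (74.3, 4305 and 17584), against 2.46 in the other wells. Colec11 was at 4756 and 4578 RPM against 118, and Colec10, whose product pairs with that of Colec11, at 3195 and 3362 RPM against 2.04. Masp1, a serine protease of these complexes, was at 1427 RPM (0, 1434 and 2867) and 1634 RPM (23.0, 1592 and 3510), against 12.2. The same wells therefore held binding subunits and a protease, while other lectins and a protease of the pathway were at under 1 RPM in both entries, with Masp2 at 0.0292 and 0.516 RPM, Mbl1 at 0.0292 and 0, Mbl2 at 0.0146 and 0.828 and Fcnb without a read. Serping1, the inhibitor of these proteases, was at 2955 and 3790 RPM, against 3244 in the other wells. Of a wider list of lectin, complement and transport proteins, which also holds Apoe and other carriers, 18 of 42 were at 10 RPM in both entries.

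Among ligands, 10 of 34 genes of BMP, GDF, TGF-beta and related ligands (29.4%) and 22 of 83 growth factors (26.5%) were at 10 RPM in both entries, shares near that of the whole class. The count was 7 of 32 for antagonists of these and other pathways and 2 of 23 for Wnt and R-spondin genes. Hgf, the hepatocyte growth factor, was at 1807 RPM in Uninjured 2 (lowest, median and highest well 39.2, 1742 and 4596) and 1797 RPM in Uninjured 3 (87.0, 1805 and 4586), against 52.4 in the other wells. Rspo3, which strengthens Wnt signals, was at 734 RPM (0, 580.1 and 3319) and 807 RPM (0, 705 and 2774), against 11.2. Angptl6 was at 1673 and 1590 RPM against 0.929, with 16.8% of its exon bases shared with a gene on the opposite strand, and Bmp5 at 986 and 1008 RPM against 38.3, with 49.1% shared in that way. Slit2 and Slit3 were at or under 1.59 RPM and Vegfa at 0.598 and 0.312 RPM.

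Chemokine genes differed in how their level was spread over the wells. Cxcl12, the ligand of CXCR4, was at 9519 RPM in Uninjured 2 (lowest, median and highest well 2802, 9214 and 20984) and 10228 RPM in Uninjured 3 (2557, 9799 and 24588). Cxcl10 was at 372 and 276 RPM with a median well of 0 in both entries and highest wells of 14356 and 7503. The 16 wells with most of it held 74.7% and 80.03% of its level in Uninjured 2 and Uninjured 3. For Ccl2, at 298 and 129 RPM, that share was 76.9% and 79.8%, and for Dcn 14.7% and 14.3%. A read of Ccl2 was found in 47.5% and 35.6% of wells, and a read of Cxcl10 in 46.8% and 45.6%. In the uninjured 10X stellate cells, a UMI of Ccl2 was found in 73.2% of cells and a UMI of Cxcl10 in 48.1%. The spread over wells is thus given for the plate only, and the difference from 10X for Ccl2 was not tested. Of 88 chemokine and interleukin genes 14 were at 10 RPM in both entries.

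**Figure D3:**
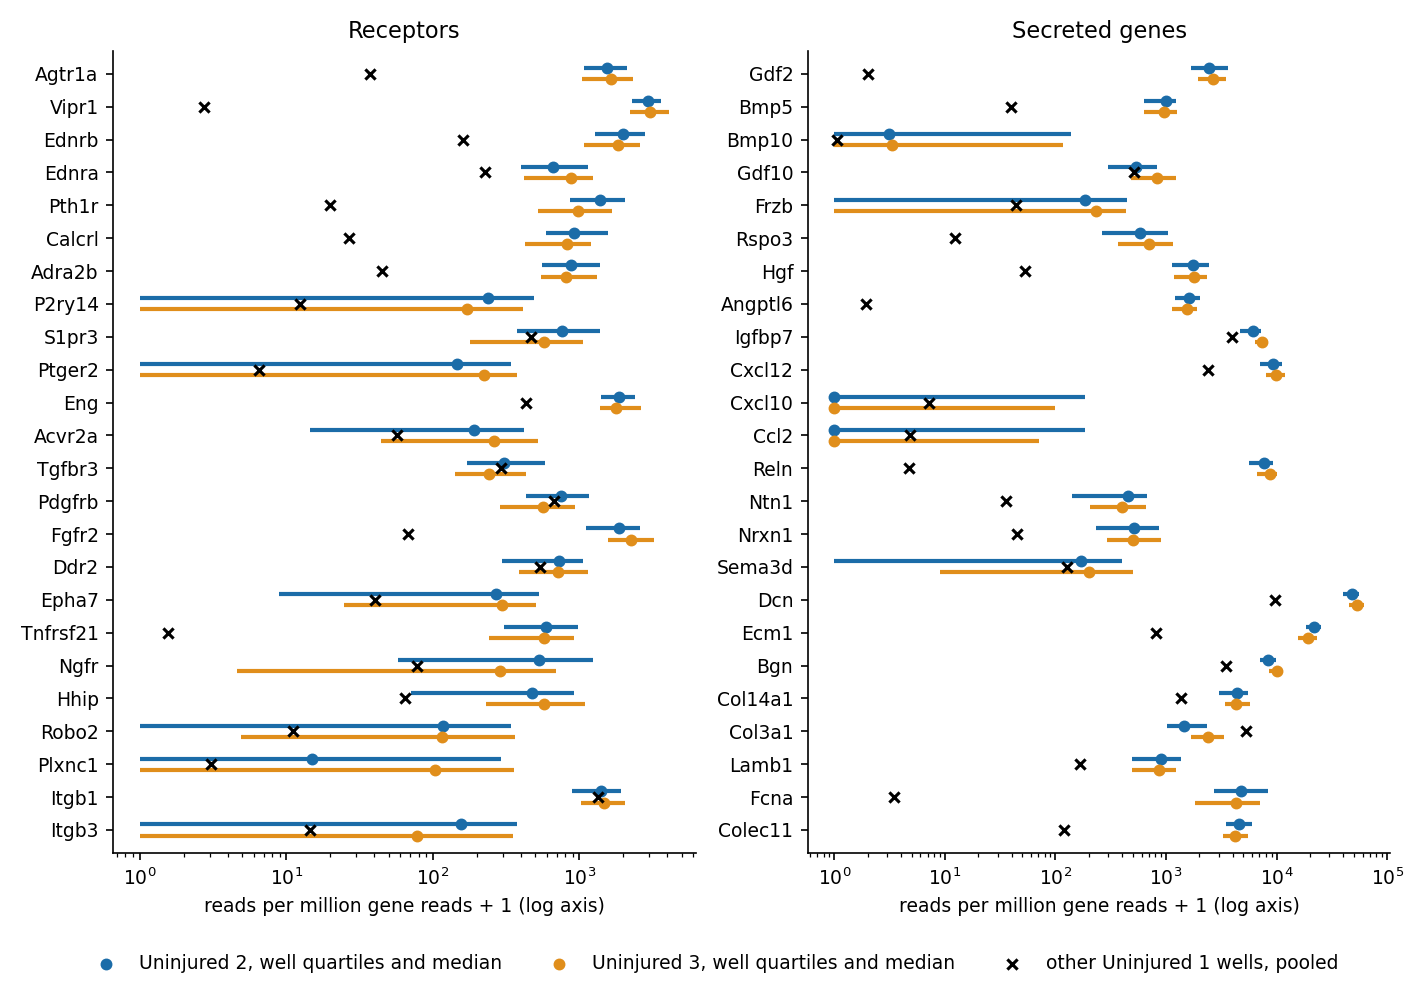
Levels of named receptors and secreted genes in RPM on a log axis, plus 1, with the median well (dot) and the quartiles of wells (line) of Uninjured 2 and Uninjured 3 and the summed level of the other 55 wells (cross). Vipr1, Tnfrsf21, Gdf2 and Fcna lie at 0.557 to 2.46 RPM in the other wells, far below both entries, and the wells of Cxcl10 and Ccl2 have a median of 0.

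The full-length wells and the 3′ 10X stellate cells placed the genes of the 3 classes in a related order, least so for transcription factors. The 10X cells held 46114829 UMIs, with a median of 6738 a cell, and 10X levels are UMIs per 1000000 UMIs (CPM). Across genes at 10 RPM, log levels of plate and 10X correlated with Pearson's r = 0.759 for transcription factors, 0.879 for receptors and 0.876 for secreted genes, against 0.703 over 7854 genes of all kinds. With the plate level per kilobase of exon, r was 0.756, 0.893 and 0.921 for the 3 classes and 0.762 for all genes. Spearman's rank correlation in RPM was 0.727, 0.907 and 0.860 for the 3 classes and 0.675 for all genes. Per kilobase it was 0.693, 0.905 and 0.899, and 0.743 for all genes. By both measures the factors thus stood above all genes on the RPM scale and not per kilobase. Genes are not independent replicates, and the points share the libraries and differ in exon length. Over the genes at level, the median share of wells with a read was 42.1% and 41.9% in Uninjured 2 and Uninjured 3 for transcription factors, 45.6% and 48.1% for receptors and 65.5% and 74.7% for secreted genes. With each well thinned to 50000 reads the same medians were 32.9% and 34.1%, 38.6% and 41.9%, and 57.6% and 66.9%. The median share of 10X cells with a UMI was 26.8%, 28.8% and 50.1%. A read and a UMI are different units, so no difference in sensitivity is read from these shares.

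**Figure D4:**
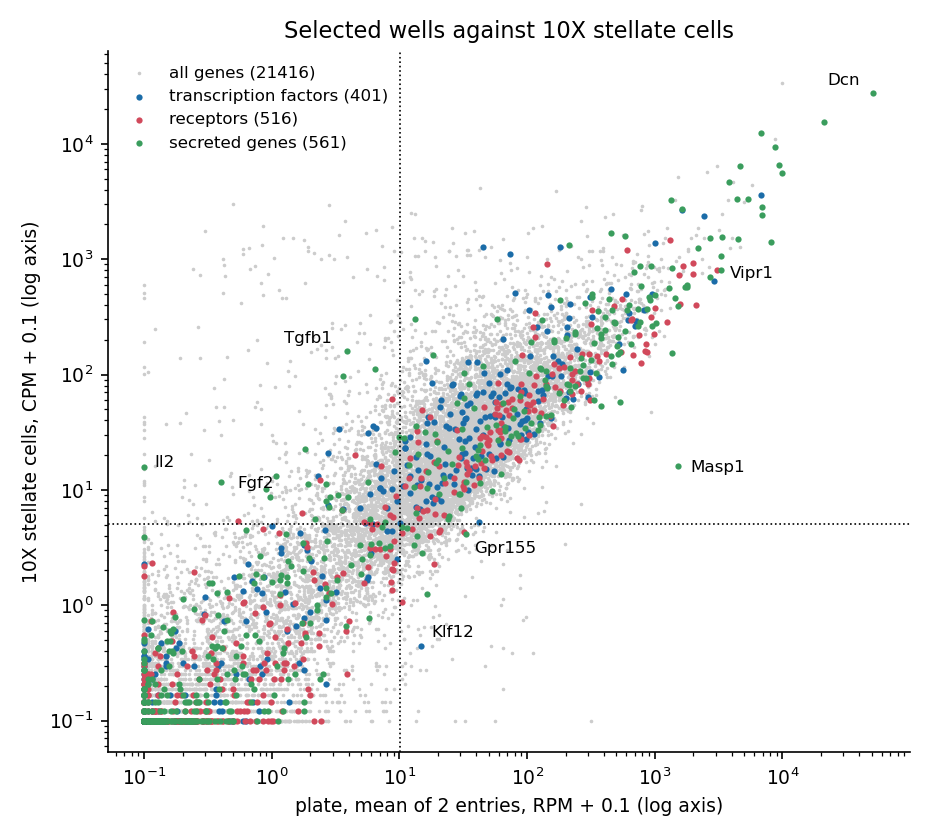
Level in 10X stellate cells (CPM) against the mean level of the 2 layout entries (RPM), both plus 0.1 on log axes, with 1 point for each gene listed in both, coloured by class, and lines at 10 RPM and 5 CPM. Most points follow a band, with Masp1 far to the plate side at 1427 and 1634 RPM and 16.1 CPM and Tgfb1 to the 10X side at 159.7 CPM.

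Few genes of the 3 classes were at 10 RPM in the wells and under 5 CPM in 10X. Of 7863 genes at 10 RPM in both entries and listed for 10X, 251 (3.19%) were under 5 CPM in the 10X stellate cells and 5 (0.0636%) had 0 UMIs. Among the class genes, 1 of 163 transcription factors (0.613%), 5 of 141 receptors (3.55%) and 2 of 166 secreted genes (1.20%) were under 5 CPM, and none had 0 UMIs. The share for receptors lies near that of all genes. Klf12, a repressor of the Kruppel-like family, was at 15.2 RPM in Uninjured 2 and 14.2 in Uninjured 3, with a read in 12.03% and 8.13% of wells, and had 16 UMIs in 10X (0.347 CPM, exact 95% interval 0.198 to 0.563). Its median well was at 0 in both entries and its highest wells were at 372 and 566 RPM. Gpr155 was at 34.5 and 29.6 RPM with a read in 11.4% and 15.0% of wells against 4.21 CPM, and Itga3, an integrin chain for laminins, at 16.2 and 24.9 RPM (14.6% and 18.1% of wells) against 4.42 CPM. Adamts12, a secreted metalloprotease, was at 28.7 and 37.3 RPM (20.9% and 24.4% of wells) against 4.08 CPM.

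The remaining 4 of these 8 genes had a read in less than 10% of wells in at least one entry, as did Klf12, and were named, like Klf12, after their values were seen. Prokr1, a prokineticin receptor, was at 15.6 and 24.8 RPM in 6.96% and 7.50% of wells, with no read in the other wells and 4.23 CPM in 10X. Tek, the angiopoietin receptor, was at 10.7 and 14.4 RPM against 4.47 CPM, Il10ra, a chain of the interleukin-10 receptor, at 26.9 and 10.2 RPM against 2.19 CPM and Adamtsl3 at 12.8 and 12.9 RPM against 3.23 CPM. For Prokr1, Tek and Il10ra 16 wells or fewer held the whole level in each entry. The count of 8 moves with the minimum, to 30 with 5 RPM and to 2 with 20 RPM in both entries.

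A different pattern was seen for Masp1, which passed the 5 CPM ceiling. At 1427 and 1634 RPM, with a read in 99.4% and 100% of wells, it had 743 UMIs in the 10X stellate cells (16.1 CPM, exact 95% interval 15.0 to 17.3), found in 10.5% of cells. Over genes with a 10X UMI, 58 of 7858 (0.738%) were at least 10 times higher in RPM than in CPM, among them Masp1 as the sole secreted gene, Klf12 as the sole transcription factor and no receptor. The median of this ratio was 1.30 for transcription factors, 2.12 for receptors, 1.87 for secreted genes and 1.53 for all genes. The level of a long transcript is raised in RPM and not in CPM, and the part of length and of the 3′ end used by each gene was not tested.

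Genes on the opposite side were high in 10X and low on the plate. Tgfb1, encoding the ligand TGF-beta 1, was at 4.43 and 3.09 RPM, with a read in 25.3% and 28.8% of wells, against 159.7 CPM and 62.1% of 10X cells. Jund was at 48.4 and 41.3 RPM against 1271 CPM, and 52.6% of its exon bases are shared with a gene on the opposite strand. Cebpb was at 56.9 and 88.5 RPM against 1102 CPM, Mif at 13.1 and 13.3 RPM against 303 CPM and Ccl19 at 4.05 and 3.01 RPM against 97.4 CPM. The order of Tgfb1 within the class therefore differs by method. Of 7773 genes at 10 CPM or more in 10X, 72 (0.926%) were under 1 RPM in both entries. Il2, the T cell growth factor, had no read in either entry and 722 UMIs in 10X (15.7 CPM, in 9.97% of stellate cells), with 13.7 CPM in the library of the portal preparation taken over all its cells. Fgf2 was at 0.394 and 0.204 RPM against 11.6 CPM, and Ccl5 had no read against 3.84 CPM. No transcription factor or receptor was at 10 CPM in 10X and under 1 RPM in both entries. Of the factors under 1 RPM, 10X was highest for Runx1, at 0.758 and 0.353 RPM against 2.17 CPM. Twist1 followed, with no read against 2.17 CPM, and Id4, at 0.438 and 0.367 RPM against 1.67 CPM. Of the receptors under 1 RPM, 10X was highest for Gpr27, at 0.525 and 0.353 RPM against 5.29 CPM. Gpr161 followed, at 0.0292 and 0 RPM against 2.21 CPM, and Gpr85, with no read against 2.08 CPM. These 6 genes and Ccl5 were under 10 CPM and are not among the 72.

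Between the entries most genes of the 3 classes differed little. Of 7037 genes with at least 20 RPM in the higher entry, 166 (2.36%) were at least 2-fold higher in Uninjured 3 and 159 (2.26%) in Uninjured 2. Of transcription factors, 3 and 4 of 147 were higher in Uninjured 3 and in Uninjured 2, of receptors 6 and 3 of 137 and of secreted genes 5 and 5 of 161. The median ratio of Uninjured 3 to Uninjured 2 was 0.9497, 1.03 and 1.06 for the 3 classes and 0.990 for all genes. With 2 entries and no replicate of either, no difference between them was tested, and the spread over wells given here describes cells and is no error of such a difference.

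Among the transcription factors, Bhlhe40, a repressor tied to the circadian clock, was at 130.5 RPM in Uninjured 2 and 60.5 in Uninjured 3, and Klf10 at 58.4 and 27.5. Klf15 was at 26.9 and 67.2 RPM and Egr2, an immediate early gene, at 102 and 207. The median well was at 0 for each of these 4 genes in both entries, and the ranges of wells overlapped. The sum of stress genes was lower in Uninjured 3 than in Uninjured 2 (15750 against 21094 RPM), as were the VSMC markers (134 against 233) and the endothelial markers (49.8 against 84), and their part in these differences was not tested. The stress sum was carried by immediate early genes such as Fos. The heat shock genes of the list went both ways. In Uninjured 3, 6 of them were higher, among them Hsph1 at 126 against 86.3 RPM and Hsp90aa1 at 109 against 85.3. Dnajb1 was lower there, at 304 against 408 RPM, as was Hspa1b at 2.67 against 3.19, and Dnaja1 was at 103.4 against 103.5. The hepatocyte sum was higher in Uninjured 3 (43.3 against 29.9 RPM), carried by Alb at 35.8 against 19.0. Apoa1 was at 3.77 against 3.19 RPM and Serpina1a at 0.516 against 0.481. Ttr, Cyp3a11 and Fabp1 were lower there, at 1.86 against 3.22, 0.136 against 1.31 and 1.28 against 2.68 RPM. The endothelial sum was carried by Clec4g, at 48.0 RPM in Uninjured 3 against 80.9 in Uninjured 2. Kdr was also lower in Uninjured 3, at 0.434 against 2.99 RPM. Pecam1, Cdh5 and Stab2 were higher there, at 0.516 against 0.0438, 0.638 against 0 and 0.176 against 0.102 RPM. Lyve1 was at 0 in both entries. Among receptors, Tlr3, a sensor of double-stranded RNA, was at 60.9 and 26.3 RPM and Plxnd1 at 80.9 and 43.0, while Neo1 was at 35.2 and 70.7 and Epha2 at 33.2 and 56.0. Plxnd1 and Epha2 were less than 2-fold apart.

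Among secreted genes, Vtn, the adhesive plasma protein vitronectin, was at 74.7 RPM in Uninjured 2 and 21.7 in Uninjured 3. It had reads in 21 of 158 and 12 of 160 wells, and the 16 wells with most of it held 96.9% and 100% of its level. Wisp1 was at 96.4 and 38.6 RPM, with a read in 33.5% and 18.8% of wells. C4b, a complement component, was at 123.9 RPM (lowest, median and highest well 0, 0 and 1032) and 289.5 RPM (0, 183 and 2192), with a read in 48.1% and 73.1% of wells. Dkk3 was at 81.2 and 173 RPM. C3, the central complement component, was chosen after its values were seen, because of all class genes with 20 RPM in the higher entry its 2 values stood furthest apart. It was at 0.117 RPM with reads in 7 of 158 wells of Uninjured 2, none above 4.80 RPM, and at 29.7 RPM with reads in 32 of 160 wells of Uninjured 3, of which 13 were at 100 RPM or more and the highest at 634. The other wells of the plate held 1975 RPM of C3 and the 10X stellate cells 2.71 CPM, while the summed FB markers were at 13.0 and 13.3 RPM in the 2 entries. The members of that sum went both ways. Dpt, the most abundant FB marker of the other wells, was at 1.36 RPM in Uninjured 2 and 5.48 in Uninjured 3. It had a read in 0.633% and 7.50% of wells. Cd34, at 485 RPM in the other wells, was at 2.52 and 0.0679 RPM, with a read in 1.90% and 3.13% of wells. Entpd2 was at 8.96 and 7.74 RPM, Col15a1 at 0.0875 and 0, Fbln2 at 0.0292 and 0.0407 and Clec3b at 0 in both entries. Spon1, at 625 RPM in the other wells, was at 7.88 and 24.5 RPM. C4b and Plxna4, at 700.4 and 220 RPM in the other wells, were also higher in Uninjured 3. Not all genes high in the other wells were. Ebf1, at 225 RPM there, was at 0.292 RPM in Uninjured 2 and 0.0950 in Uninjured 3, and Prrx1, at 145 RPM there, at 1.85 and 1.98. The part of other cells in these differences was not tested. Plxna4, a semaphorin co-receptor, was likewise chosen after its values were seen, at 2.87 and 31.5 RPM, with reads in 7 and 20 wells.

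**Figure D5:**
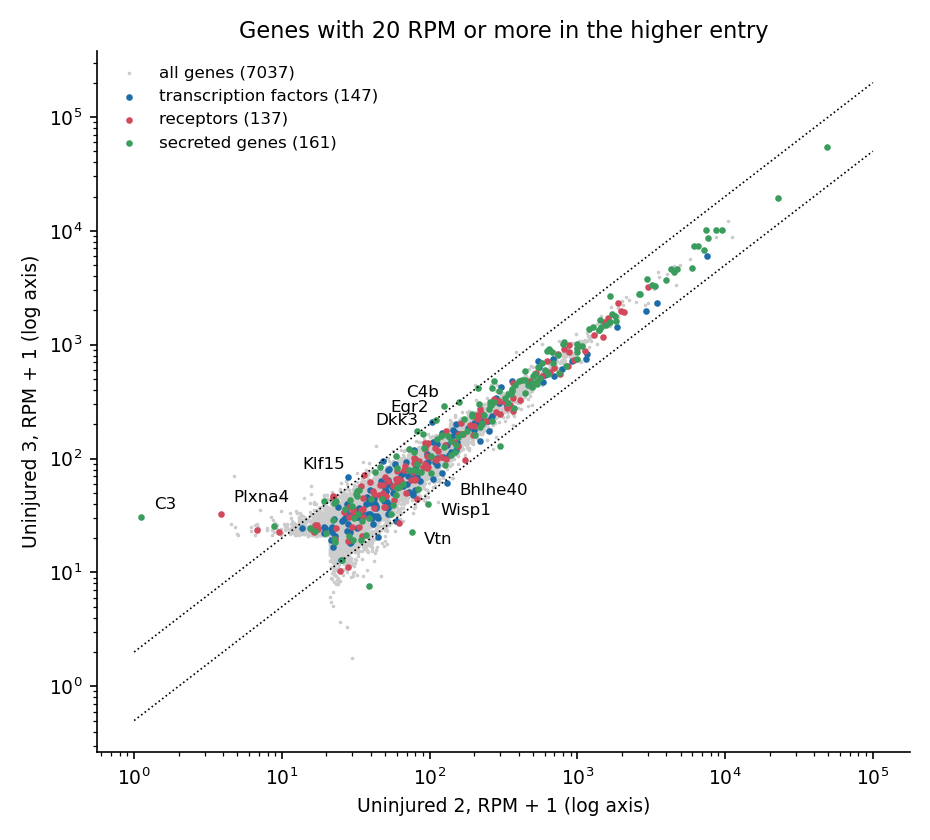
Level in Uninjured 3 against level in Uninjured 2 in RPM plus 1, both on log axes, with 1 point for each of 7037 genes at 20 RPM in the higher entry, coloured by class, and lines at 2-fold differences either way. Most points lie within the 2-fold lines, and C3 (0.117 and 29.7 RPM) and Plxna4 (2.87 and 31.5 RPM) lie above them.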

How the data were processed

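Smart-seq2 was run on sorted GFP-positive liver cells of uninjured mice in 384-well plates. The deposited tables hold read counts per gene and well, which the authors made with STAR on mm10 extended by eGFP and spike-in sequences and with rpkmforgenes on RefSeq genes, without using strand. The deposited 10X matrices hold UMI counts, which the authors made with Cell Ranger (2.1.0, per the submitters' processing notes) on mm10. Counts were checked to be whole numbers. Here, 24489 rows were summed to 23997 names (279 names repeated), eGFP and spike-ins were left out of totals, and reads summed over the wells of a layout entry were divided by the gene reads and multiplied by 1000000 (RPM), or also by the union of exons (GENCODE vM21 basic, GRCm38) in kilobases. In 10X, cells with at least 300 genes, at most 30% mitochondrial UMIs and at least 1 UMI each of Reln and Lrat were summed; no doublet caller was run on cells or wells, so doublets that hold both genes were kept; intervals are exact Poisson at 95%. Of the 23997 names, 21117 matched the 10X list by symbol and 299 by RefSeq synonym, and 2581, including Cebpd, are not listed there. Barcodes of this 10X library occur 45 to 74 times in each of the other libraries.

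The wells, the gene lists and the tests were chosen with earlier results of these data known. Genes were named by a rule: in each class the 6 highest per exon length, up to 5 under 5 CPM in 10X with a read in at least 10% of wells, the 2 largest differences between entries each way at 50 RPM or more, the 3 highest in 10X among those under 1 RPM, markers and lineage factors. Other genes named as members of a pathway, and the comparison of plate with 10X ratios, were chosen after their values were seen. Groups of samples allowed no test, so none was run; the counting steps were tested on simulated data. Promoters came from the RefSeq table (GRCm38.p6), where 349 of 471 class genes at level were found by symbol. Python 3.11.15, pandas 2.3.3, numpy 2.4.6 and scipy 1.17.1 were used. Alternatives changed the read minimum, well weights, level minimum, ceiling and scaling. Spike-in, injured and portal samples were used here only as described.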

Additional observations from a re-analysis of the deposited data

How the results depend on the processing

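The number of selected wells and of class genes at 10 RPM, and the absence of class genes with 0 UMIs in 10X, stayed within 1.5 times or at the same value in all alternatives run. The number of class genes under 5 CPM in 10X (8) depended on the thresholds. It was 30 with a level minimum of 5 RPM, 2 with 20 RPM, 1 with a minimum of 5 RPM per kb in place of 10 RPM, 1 with a ceiling of 2 CPM and 28 with a ceiling of 10 CPM. With only Uninjured 2 or only Uninjured 3 it was 15 to 17, since a gene then had to reach 10 RPM in a single entry. The number of genes 2-fold apart between the entries (325) was 22 at 4-fold and 2205 with a minimum of 1 RPM in the higher entry, and it cannot be computed with an entry left out. The median level of the 158 named genes (33.9 RPM) was 27.3 to 31.0 RPM with an entry left out. The level of 15 of the 158 moved by more than the spread between the entries when each well weighed the same, among them Eng, Hgf and Prrx1, and that of 4 with 300 reads of Reln and of Lrat. Scaling the entries by a trimmed mean moved all genes by a log2 of -0.01. No paired analysis was possible because the 2 entries are not replicates of 2 groups and no test was run. For Prokr1, Tek and Il10ra 16 wells or fewer held the whole level, which limits statements on them.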

Other observations

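Outside the 3 classes, 5 genes at 10 RPM in both entries had 0 UMIs in the 10X stellate cells: Clca1, Trex1, Zbed6, Ins2 and Zbtb9. Clca1 was at 317 and 320 RPM in Uninjured 2 and Uninjured 3, with a read in 84.2% and 90% of wells and 0.0929 RPM in the other wells. In RefSeq that name is also a synonym of Clca3a1, which had 9881 UMIs in the same 10X cells, and whether the plate reads belong to that gene was not tested. Of the 23997 names, 21 are also a synonym of another gene listed for 10X, 4 of them in the 3 classes and none of these at 10 RPM in both entries.

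Of the 72 genes at 10 CPM or more in 10X and under 1 RPM on the plate, 14 have symbols of cytosolic ribosomal proteins (Rpl or Rps and a number, leaving out Rps27rt and the mitochondrial Mrpl23 and Mrps36), against 77 of the 7773 genes at 10 CPM. These names have near-identical copies in the genome, and how reads were shared between the copies was not tested.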
